A study of Mus musculus with 4 samples.

Results

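EGFP and dsRed are the 2 transcripts of a lineage reporter that were counted beside the mouse genes in ventricle cells of E12.5 embryos. They were chosen by name and are 2 of the 55405 features of each count table. All embryos carried 1 copy of the mTmG reporter at the Rosa26 locus (Rosa26mTmG/+) and the tamoxifen-inducible Cre driver Cdh5(Pac)-CreER+, and all received tamoxifen at E9.5. The group called het here carried 1 floxed Gata4 allele (Gata4fl/+) and the group called KO carried 2 (Gata4fl/fl), with 2 single-cell libraries each, named het 1, het 2, KO 1 and KO 2. Series of 4 values are given in that order of libraries. Total ventricular cells were taken with no sort on either reporter. Whether a library is 1 embryo or a pool is not stated, and the labels name 2 different kits. Both groups carried the reporter, the Cre and the tamoxifen, and no library lacking Cre was analysed here, so EGFP counted without Cre has no measured level.

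The mTmG reporter drives a red fluorescent membrane protein from a broadly active promoter until Cre cuts out the red cassette. The cell and all its descendants then make membrane-bound EGFP in its place. The Cdh5 regulatory sequence places the Cre in endothelial cells, which in the embryonic heart line the chambers as endocardium and form the coronary vessels. Endocardial cells over the cushions lose their contacts, invade the cardiac jelly and become the mesenchyme of the future valves, and endothelium of the early embryo also gives rise to blood cells. EGFP therefore records that a cell or its ancestor held active Cre, whatever the cell is when it is collected. The red protein of mTmG is a derivative of dsRed, and the feature is called dsRed as in the tables. What sequence either feature holds was not analysed here, so no count of EGFP is compared with a count of dsRed as a level. EGFP as a share of all reporter UMIs is compared only between groups of cells.

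The libraries held 137890971 to 190207638 UMIs (unique molecular identifiers, each a counted transcript), with 64283, 143422, 67124 and 71547 UMIs of EGFP and 30263, 51317, 35434 and 30168 of dsRed. After filters 53060 cells remained, and 38384 of them fell in clusters that could be named endothelial-like, mesenchymal-like, epicardial-like, cardiomyocyte-like, erythroid-like or macrophage-like from marker genes. Neither reporter was used to form the clusters. Library het 1 stood apart: 59.4% of its cells fell in unnamed clusters, against 3.29%, 5.70% and 2.19% in het 2, KO 1 and KO 2, and its median cell held 4162 UMIs against 14053, 7111 and 12302. Between 23 and 103 cell barcodes were shared by each pair of libraries, at most 0.686% of the smaller one. Levels are CPM, the UMIs of a gene per 1000000 UMIs of the cells summed. Gata4 itself measured 148, 122, 211 and 184 CPM in endothelial-like cells, higher in both KO libraries. Reads from the 3′ end need not fall in the deleted part of the gene, so this level does not check the labels.

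EGFP was highest in endothelial-like cells of every library. Its level there was 1729, 3332, 2144 and 2714 CPM, a mean of 2479.6 ± 697 (SD, n = 4). Mesenchymal-like cells came next, with 276, 466, 311 and 238 CPM. The endothelial-like and mesenchymal-like libraries did not overlap, and the lowest endothelial-like value was above the highest mesenchymal-like one. Macrophage-like cells held 177, 215, 169 and 277 CPM of EGFP, overlapping the mesenchymal-like values and lower than them in 3 of 4 libraries. Epicardial-like cells held 105, 77.6, 128 and 53.7 CPM, below all macrophage-like values. Cardiomyocyte-like cells held 117, 65.9, 70.6 and 35.1 CPM, and erythroid-like cells 41.9, 61.3, 65.7 and 55.7 CPM. These last 3 classes overlapped one another, so their order is not set beyond the spread of the libraries. The cells were grouped by their own transcripts, so the order of classes is a description with no test.

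**Figure D1:**
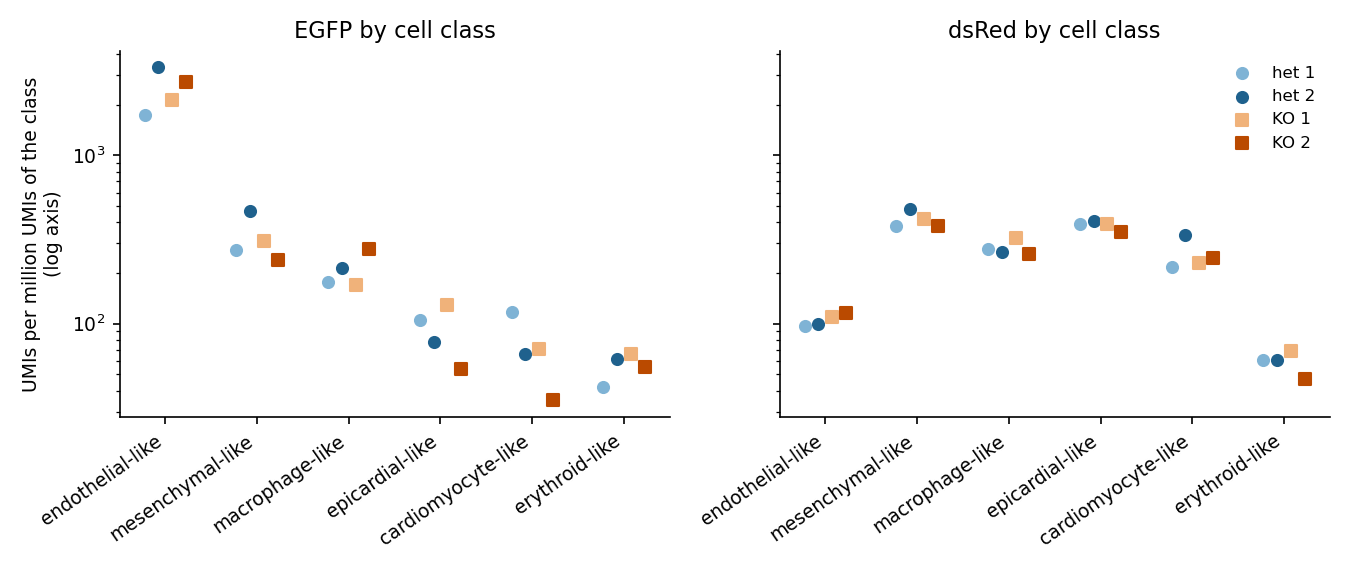
EGFP (left) and dsRed (right) in 6 cell classes, as CPM on a log axis; each point is 1 library (circles het, squares KO). EGFP is highest in endothelial-like cells of all 4 libraries (1729 to 3332 CPM), where dsRed lies between 97.5 and 116 CPM.

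The red transcript had another order. It was highest in mesenchymal-like cells (380, 483, 420 and 378 CPM) and in epicardial-like cells (394, 410, 391 and 352 CPM), 2 classes whose libraries overlapped. Macrophage-like cells held 277, 267, 322 and 259 CPM of dsRed and cardiomyocyte-like cells 217, 338, 231 and 245 CPM, again overlapping. In endothelial-like cells dsRed stood at 97.5, 99.1, 109.6 and 116 CPM, below every library of those 4 classes. Erythroid-like cells were lowest, at 60.6, 61.3, 68.9 and 46.8 CPM. Globin transcripts fill most of the erythroid total: with globin UMIs left out of the total, dsRed there was 252, 231, 186 and 112 CPM, and EGFP 174, 232, 177 and 133 CPM.

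EGFP made up 94.7%, 97.1%, 95.1% and 95.9% of the reporter UMIs of endothelial-like cells. The share was 42.1%, 49.1%, 42.5% and 38.6% in mesenchymal-like cells and 21.1%, 15.9%, 24.7% and 13.2% in epicardial-like cells. It was 35.1%, 16.3%, 23.4% and 12.55% in cardiomyocyte-like cells. These are shares of UMIs and not of cells. Macrophage-like cells (34.4% to 51.7%) and erythroid-like cells (40.9% to 54.4%) lay near the mesenchymal-like share, and all 4 libraries kept endothelial-like cells above every other class.

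Counted by cells, at least 1 EGFP UMI was seen in 87.4% of endothelial-like cells of het 1 (95% Wilson interval 85.6 to 88.9), 93.8% in het 2, 86.0% in KO 1 and 89.7% in KO 2. Such intervals cover counting error only. The background was taken from cardiomyocyte-like cells, which are not a cell type that the Cre driver targets: 38.3%, 35.8%, 25.4% and 22.5% of them had an EGFP UMI. Median depth was 4968, 15496.5, 10775 and 18283 UMIs in endothelial-like cells and 4225, 6102.5, 3336.5 and 5285.5 in cardiomyocyte-like cells of the 4 libraries. Cells with fewer than 3000 UMIs were then left out and the others thinned to 3000. The shares with EGFP were 83.8%, 91.0%, 82.7% and 84.9% in endothelial-like cells and 26.3%, 13.9%, 14.7% and 8.79% in cardiomyocyte-like cells. Mesenchymal-like cells had 29.8%, 28.1%, 30.7% and 16.9% after thinning, above the background of the same library by 3.50, 14.2, 16.0 and 8.15 percentage points. Epicardial-like cells had 23.1%, 17.9%, 27.3% and 13.2%, below the background in het 1 and above it by 3.95, 12.6 and 4.402 points in het 2, KO 1 and KO 2. Thinned cells with a dsRed UMI made up 18.3% to 23.7% of endothelial-like and 62.2% to 68.0% of mesenchymal-like cells. Thinning to 2000 or 5000 UMIs instead moved 18 of 24 mean shares of cells with a reporter UMI by at least 1 SD of the libraries.

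Cardiomyocyte-like cells were also used to set low EGFP beside transcripts of endothelial genes. Their EGFP level was 6.77%, 1.98%, 3.29% and 1.29% of the endothelial-like level of the same library. A list of 18 pan-endothelial genes, among them Pecam1, Cdh5 and Kdr, had median levels of 4.04%, 0.755%, 1.16% and 0.414% by the same measure, so EGFP was above the median gene in each library. Both were highest in het 1, then in KO 1, het 2 and KO 2. Of those 18 genes, 17 or 18 lay below EGFP in each library. In mesenchymal-like cells EGFP was 15.9%, 14.0%, 14.5% and 8.77% of the endothelial-like level, against list medians of 4.14%, 2.54%, 2.97% and 2.54%. There 14, 14, 14 and 12 of the 18 genes lay below EGFP, and the highest gene stood at 38.7%, 35.4%, 33.7% and 35.5%. In macrophage-like cells EGFP was 10.3%, 6.45%, 7.90% and 10.2%, against 1.01%, 1.62%, 1.42% and 0.792%, with 16 of the 18 genes below EGFP in each library. The part that free RNA takes in these low levels was not tested.

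The mean level of a class hides how the reporters were spread over its cells. Cells with at least 5 reporter UMIs were therefore called EGFP-high when EGFP made up at least 80% of them and EGFP-low at 20% or less. These limits were set after the data were seen. Among endothelial-like cells 3408 of 3833 such cells were EGFP-high (88.9%, Wilson interval 87.9 to 89.9), 182 were EGFP-low and 243 lay between. In 80.3% of these callable cells EGFP made up more than 90%. Over all endothelial-like cells, callable or not, 65.1% were EGFP-high. Mesenchymal-like cells of the clusters led by Postn, Sox9, Cthrc1 and Twist1, genes of cushion mesenchyme, were split, with 13.4% of cells above 90% EGFP and 43.5% at 10% or below. The Col14a1- and Tcf21-led clusters, whose leading genes mark fibroblasts that come from the epicardium, had 6 of 178, 7 of 432, 8 of 333 and 0 of 282 EGFP-high cells. Epicardial-like cells had 0 of 52, 1 of 149, 0 of 239 and 0 of 122. Where the count is 0, the upper limits for callable epicardial-like cells of het 1, KO 1 and KO 2 were 5.77%, 1.26% and 2.46%. For callable Col14a1-led cells of KO 2 the limit was 1.06%.

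**Figure D2:**
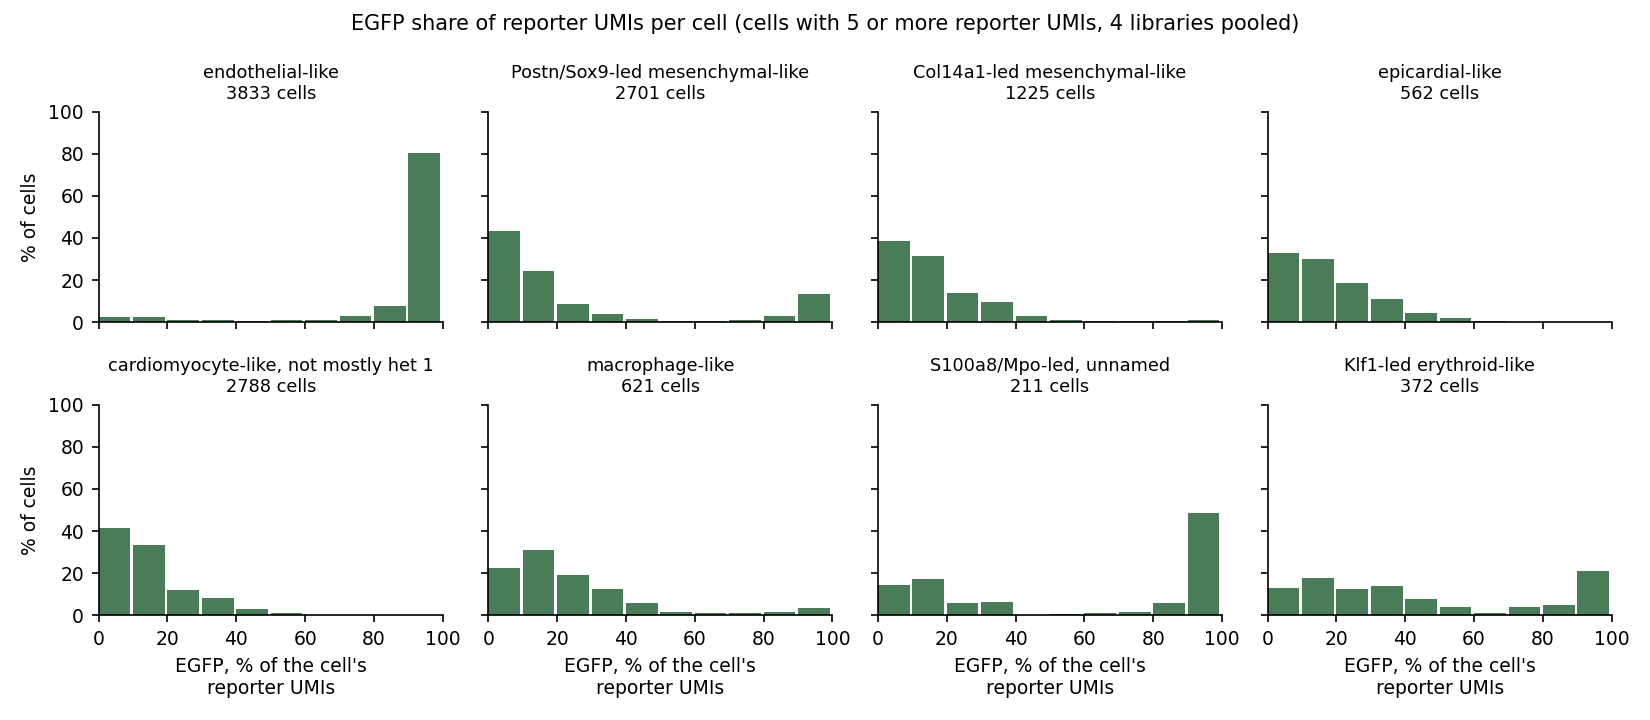
EGFP as a percentage of the reporter UMIs of each cell (x axis, bins of 10 percentage points) for cells with 5 or more reporter UMIs, as a percentage of the cells of the group (y axis), with the 4 libraries pooled. Endothelial-like cells pile up at the right (80.3% in the last bin), Postn/Sox9-led mesenchymal-like cells at both ends (43.5% and 13.4%), and epicardial-like cells on the left.

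By library, the EGFP-high share of callable cells was 94.4%, 90.6%, 89.3% and 90.1% in the Fabp4- and Apln-led vascular cluster, which carries genes of coronary endothelium. The Npr3-led endocardial cluster had 91.8%, 93.1%, 87.7% and 86.2%. The Wnt4-led endothelial-like cluster, with Wnt9b and Klf2 among its genes, had 79.0%, 86.6%, 76.1% and 73.3%, lower than the other 2 in every library. A low-depth Fabp4-led vascular cluster with a median of 2072.5 UMIs had 97.0% to 99.2%. In the Postn- and Sox9-led mesenchymal-like clusters the share was 19.1% (59 of 309 cells), 19.0% (218 of 1148), 15.7% (105 of 669) and 11.1% (64 of 575), with both KO libraries below both het libraries. Cardiomyocyte-like clusters that were not mostly het 1 had 2 of 268, 6 of 1236, 2 of 660 and 1 of 624, and are the low end of the background of the call. The whole cardiomyocyte-like class, with the clusters made up mostly of het 1 cells, had 100 of 617 in het 1 (16.2%, Wilson interval 13.5 to 19.3) and at most 0.593% in the other 3 libraries. The Wnt4-led cluster lay above the whole class in all 4 libraries. The cushion-type share lay well above it in het 2, KO 1 and KO 2, but in het 1 its interval (15.1 to 23.8) overlapped that of the whole class.

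**Figure D3:**
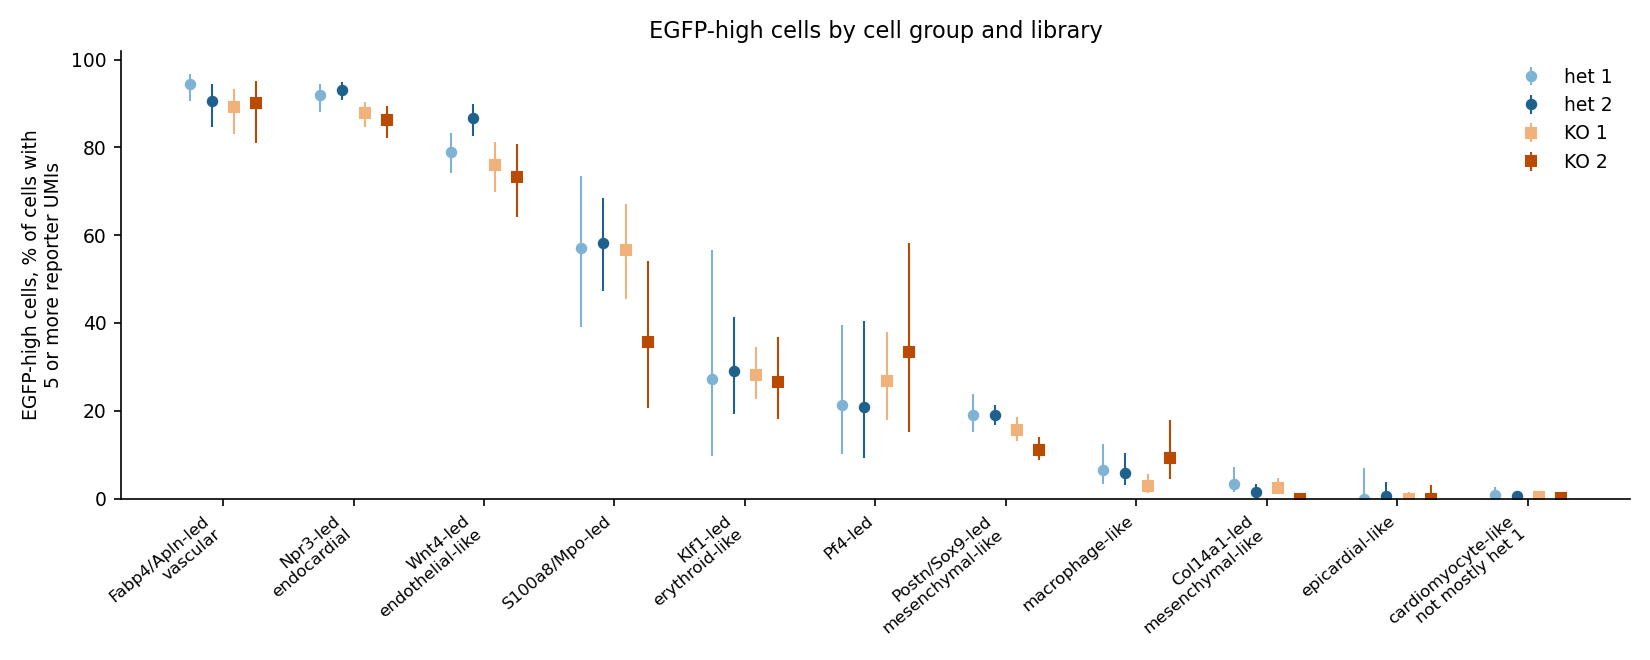
EGFP-high cells as a percentage of cells with 5 or more reporter UMIs (y axis) in 11 groups of cells, 1 point per library with its 95% Wilson interval (circles het, squares KO). The 3 endothelial-like groups at the left lie between 73.3% and 94.4%, the Postn/Sox9-led cells between 11.1% and 19.1%, and the Col14a1-led, epicardial-like and cardiomyocyte-like cells near 0; the clusters made up mostly of het 1 cells (28.1% in het 1) are left out of the cardiomyocyte-like group.

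EGFP-high cells of endothelial-like and mesenchymal-like clusters held EGFP at levels that overlapped between the clusters. EGFP-high cells of the cushion-type mesenchymal-like clusters held 2689, 3902, 3075 and 3455 CPM of EGFP. Vascular cells held 2675, 4771, 3666 and 4050, endocardial cells 2206, 3550, 2593 and 3191, and Wnt4-led cells 1785, 3219, 1996 and 2559. The cushion-type level was above the endocardial and Wnt4-led levels in 4 of 4 libraries. Library het 2 was highest and het 1 lowest in all 4 groups. In EGFP-low cells the red transcript stood at 374, 424, 403 and 400 CPM in endothelial-like and at 540, 667, 615 and 507 CPM in cushion-type cells. The call itself uses both reporters, so these levels describe the called cells and test nothing. EGFP in the same EGFP-low endothelial-like cells, low by the call, was 32.3, 47.6, 47.0 and 43.4 CPM.

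EGFP-high cells also stood among blood cells. The counts that follow are out of callable cells, those with at least 5 reporter UMIs, and not out of all cells. An unnamed cluster led by S100a8, S100a9, Mpo and Prtn3, genes of granulocytes and their precursors, had 16 of 28, 46 of 79, 43 of 76 and 10 of 28 EGFP-high cells, and 48.3% of its callable cells held more than 90% EGFP. Its EGFP-high cells held 1927, 2471, 1552 and 2169 CPM of EGFP. The Klf1-led erythroid-like cluster had 3 of 11, 18 of 62, 61 of 216 and 22 of 83 EGFP-high cells. The erythroid-like cluster led by the embryonic globins Hbb-bh1, Hba-x and Hbb-y had 17 of 62 in het 1 but 2 of 87, 1 of 91 and 0 of 31 in het 2, KO 1 and KO 2. Macrophage-like cells had 8 of 121, 10 of 173, 7 of 251 and 7 of 76. A Pf4- and Itga2b-led cluster of megakaryocyte genes, left unnamed because cardiomyocyte markers took 1% or more of its UMIs, had 6 of 28, 5 of 24, 19 of 71 and 5 of 15. Callable cells made up 14.2%, 88.8%, 87.4% and 73.7% of the granulocyte-led cluster and 45.8%, 44.0%, 27.8% and 26.8% of the Klf1-led cluster. In the cluster led by embryonic globins they made up only 6.60%, 6.18%, 6.07% and 6.51%. Few cells carry these shares, and the Wilson interval of the granulocyte-led cluster in KO 2 ran from 20.7% to 54.2%.

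The unnamed cells of het 1 carried many of its EGFP UMIs. Of 2506 EGFP-high cells in het 1, 1488 lay in unnamed clusters. For 1472 of them the cluster was kept out of the classes because cardiomyocyte markers took at least 1% of its UMIs, a limit set after the data were seen. One of these clusters had endothelial leading genes (Emcn, Icam2 and Plvap) and 2121 cells, 2058 of them from het 1, and 784 of its 958 callable cells were EGFP-high. Cardiomyocyte-like clusters made up mostly of het 1 cells had 98 of 349 EGFP-high cells in that library. Among the named classes, endothelial-like cells held 81.0%, 81.5%, 81.9% and 85.8% of all EGFP-high cells.

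Genes were also ranked by how closely their level followed each reporter over the 24 sums of 6 classes in 4 libraries, as Pearson r of log2(CPM + 1) among 9428 genes. The sums share libraries and depth, and the r values are a description with no p. Nearest to EGFP were Calcrl, a receptor subunit for adrenomedullin (r = 0.96), Snrk, a kinase (0.96), Prkd2 (0.95), Icam2, an adhesion molecule of endothelium (0.95), and Eng, a TGF-beta co-receptor (0.95). Pecam1 had r = 0.93, Cdh5, the gene whose regulatory sequence drives the Cre, r = 0.89, and Actb r = 0.58. Cdh5 fell from 702 CPM in endothelial-like to 5.01 CPM in mesenchymal-like cells, while EGFP kept 323 CPM there. Not every endothelial gene fell that far: Eng stood at 717 CPM in endothelial-like and 122 CPM in mesenchymal-like cells. Nearest to dsRed were Pik3r2 (0.96), Alcam (0.94), Ift57 (0.93), Epb41l3 (0.93) and Ppfibp2 (0.93). The non-coding transcript of the reporter's host locus, Gt(ROSA)26Sor, lies on chromosome 6 (113067428 to 113077333, minus strand, mm10) and had r = 0.54 with EGFP and 0.18 with dsRed.

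The first comparison between genotypes asked whether the reporters themselves differed between KO and het libraries. They did not pass the test in any of the 6 classes with edgeR, and neither did any other gene: 0% of the genes tested were called in each class, with 153 to 1683 genes at an unadjusted p under 0.05. EGFP in endothelial-like cells had a het mean of 2530.4 ± 1133 CPM and a KO mean of 2428.8 ± 403 CPM (SD, n = 2 each), and the libraries overlapped. The log2 difference, KO minus het, was −0.08 (SE 0.373, edgeR adjusted p = 0.9998). In mesenchymal-like cells EGFP differed by −0.45 (SE 0.261, unadjusted p = 0.122 with edgeR), and in cardiomyocyte-like cells by −0.71 (SE 0.338, unadjusted p = 0.0699 with edgeR). The cardiomyocyte-like EGFP values ran in the same library order as the pan-endothelial medians in those cells, which were 4.04%, 0.755%, 1.16% and 0.414% of the endothelial-like level, and that shared order was not tested further. Epicardial-like and macrophage-like cells differed by 0.01 (SE 0.318) and 0.19 (SE 0.259).

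In erythroid-like cells both reporters had lower fitted levels in KO, by −0.67 for EGFP (SE 0.274, edgeR adjusted p = 0.367) and −0.99 for dsRed (SE 0.278, edgeR adjusted p = 0.320). The TMM scaling factors differed there between genotypes (0.705 and 0.756 in het, 1.40 and 1.34 in KO), and without them the EGFP difference turned to 0.23 and that of dsRed was −0.07. The make-up of the class differed too. The Klf1-led cluster held 24 of 969, 141 of 1566, 778 of 2401 and 310 of 855 erythroid-like cells. The part of that mix in the differences between genotypes was not tested. In the other classes dsRed differed by 0.19 in endothelial-like (SE 0.143), −0.12 in mesenchymal-like, −0.11 in epicardial-like, −0.12 in cardiomyocyte-like and 0.11 in macrophage-like cells. In endothelial-like cells the 2 KO values of dsRed, 109.6 and 116 CPM, were both above the 2 het values, 97.5 and 99.1 CPM, but the fitted difference did not pass the test (edgeR unadjusted p = 0.238). The genotype effect on EGFP in endothelial-like minus that in mesenchymal-like cells was 0.40 (SE 0.212, edgeR unadjusted p = 0.0951), and that on dsRed 0.30 (SE 0.126, edgeR unadjusted p = 0.0443, adjusted p = 0.975). Against cardiomyocyte-like cells the differences were 0.69 (SE 0.724) and 0.25 (SE 0.198), and 0% of genes were called in both tests of a difference.

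**Figure D4:**
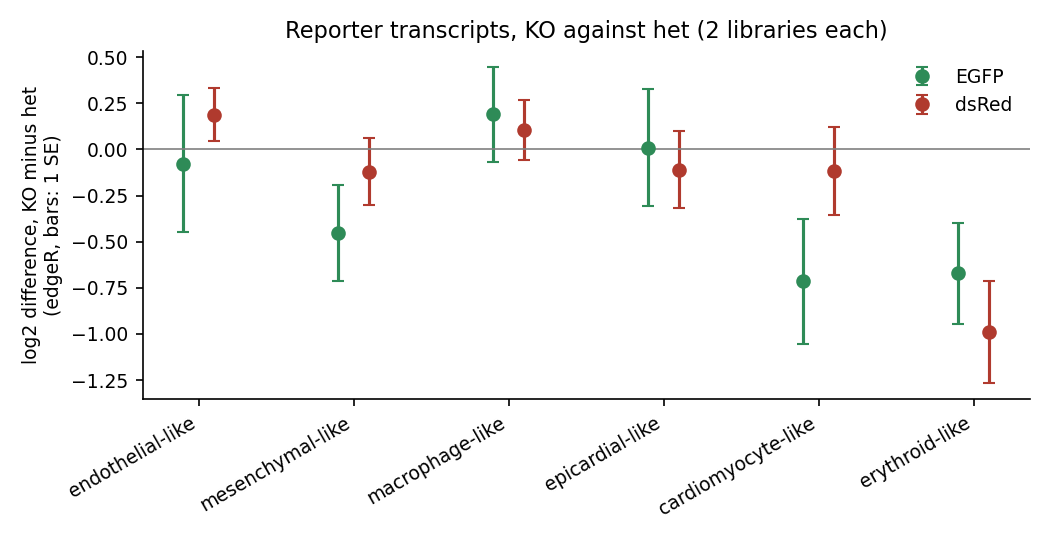
Log2 difference of EGFP and dsRed, KO minus het, in 6 cell classes (points; bars are 1 SE from edgeR; 2 libraries per genotype). All 12 differences lie within −0.99 and 0.19, and none passed the adjusted test.

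The EGFP-high share of callable cells was also compared between genotypes, where 2 libraries against 2 cannot give an exact permutation p under 0.333. In the Postn- and Sox9-led mesenchymal-like clusters the het mean was 19.0% ± 0.0738 and the KO mean 13.4% ± 3.23 (SD, n = 2 each), a difference of −5.63 percentage points (two-sided exact permutation p = 0.333). The difference was −5.51 points in endocardial, −2.79 in vascular and −8.12 in Wnt4-led cells, with no overlap between genotypes in each (exact permutation p = 0.333). Without KO 2 the cushion-type difference was −3.35, without het 1 the vascular one −0.87 and without het 2 the Wnt4-led one −4.34 points. In the granulocyte-led cluster it was −11.5 points (exact permutation p = 0.333), which rested on KO 2 and was −1.11 without it. The Pf4-led cluster went the other way, with both KO libraries above both het libraries by a mean of 8.92 points (exact permutation p = 0.333). Genotypes overlapped in Klf1-led (−0.78, exact permutation p = 0.667), Col14a1-led (−1.29, exact permutation p = 0.667) and macrophage-like cells (−0.20, exact permutation p = 1). EGFP-low cells were 3.02% ± 0.753 of callable endothelial-like cells in het and 7.20% ± 1.80 in KO (exact permutation p = 0.333). Whether a cell can be called depends on its depth, and 59.9%, 84.2%, 70.6% and 83.1% of endothelial-like cells were callable. Taken over all cells of the group, the KO minus het difference kept its sign in cushion-type (−3.53), endocardial (−3.89) and Klf1-led cells (−5.16) and turned positive in vascular (3.22), Wnt4-led (9.09) and granulocyte-led cells (7.97).

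The next comparison asked what else differed between labelled and unlabelled cells of the same class, in the same library. EGFP-only cells had at least 1 EGFP and 0 dsRed UMIs and dsRed-only cells the reverse, and both reporters were left out of the test. Among endothelial-like cells 419 to 875 EGFP-only cells per library were set against 47 to 109 dsRed-only cells. Of 12780 genes 1 passed (0.00782% of genes), with 754 at an unadjusted p under 0.05. That gene was Gja5, the gap junction protein connexin 40 of arterial endothelium and trabecular myocardium (chromosome 3, 96904693 to 97077416, mm10). It stood at 5.62, 4.63, 17.0 and 22.4 CPM in EGFP-only cells and at 14.7, 23.4, 40.02 and 52.4 CPM in dsRed-only cells, lower on the EGFP side in 4 of 4 libraries (log2 difference −1.46, SE 0.220, edgeR adjusted p = 0.0274). The call was lost without het 1, without KO 1, without KO 2, without the library block and with EGFP-high against EGFP-low cells, while the difference stayed between −1.63 and −1.04 in all 10 alternatives. Cdh5 differed by 0.11 (SE 0.0778, edgeR adjusted p = 0.905), at 737 ± 82.4 against 667 ± 79.4 CPM (SD, n = 4). None of the 18 pan-endothelial, 12 endocardial or 12 coronary genes passed, and their median differences were 0.10, 0.25 and −0.03 against 0.01 over all genes. The difference by label itself differed between KO and het for 15 genes (0.117% of genes), 12 with a higher value in KO, by the edgeR interaction test. Among them were the water channel Aqp1 (1.68, SE 0.213), the chemokine Ccl2 (2.55) and the elastin gene Eln (−1.42), named here after their values were seen. Aqp1 is also a leading gene of the Wnt4-led cluster, and the part of the cluster mix in these calls was not tested. The count rested on the 47 to 109 dsRed-only cells per library and was 35 to 68 without 1 library.

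EGFP-high endothelial-like cells were set against the 23, 45, 58 and 56 EGFP-low ones of the 4 libraries in the same way. Here 7 of 13897 genes passed (0.0504% of genes), all higher in EGFP-high cells. Igfbp5, an IGF-binding protein, rose from 1159 ± 81.0 to 1546 ± 143 CPM (log2 difference 0.43, SE 0.0591, edgeR adjusted p = 0.00451), and Kitl, the KIT ligand, rose by 0.68 (SE 0.101, edgeR adjusted p = 0.0110). The other 5 were the muscle genes Ttn and Tnnt1 and the globins Hbb-y, Hba-a1 and Hba-a2, named here after their values were seen. All 16 genes of the cardiomyocyte list lay above 0 with a median of 0.64, against 0.02 over all genes. Their summed level was 5402, 2151, 2281 and 1124 CPM in EGFP-high and 1583, 2384, 1754 and 627 CPM in EGFP-low cells, with no listed gene at 0. It was higher in EGFP-high cells of all libraries but het 2. For EGFP-only against dsRed-only endothelial-like cells 4 of the 16 genes lay above 0 and 12 below, with a median of −0.09. The part of cardiomyocyte RNA in these calls was not tested.

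Mesenchymal-like cells differed far more with the label. EGFP-only cells (98, 131, 112 and 37) were set against 374 to 640 dsRed-only cells per library, and 525 of 12260 genes passed (4.28% of genes), 262 higher and 263 lower in EGFP-only cells. Only 49, 112, 77 and 25 of the EGFP-only cells had 2 or more EGFP UMIs. They were also shallower, with medians of 3439, 12584, 7709.5 and 12342 UMIs for all EGFP-only cells against 6011, 14563.5, 11035.5 and 22382.5 for dsRed-only cells. Of 18 genes of the cushion and endothelial-to-mesenchymal transition list 8 rose and 0 fell, with a median of 0.32 against 0.00 over all genes. They included the transcription factors Twist1 (log2 difference 0.68, SE 0.0709) and Msx1 (0.86) and the matrix genes Vcan (0.54) and Cthrc1 (0.61). Of 14 genes of the epicardium-derived and fibroblast list 7 fell and 2 rose, with a median of −0.47. Wt1, the epicardial transcription factor, fell by 1.58 on the log2 scale, Col14a1 by 1.20, Dcn by 0.84 and Col1a1 by 0.44, while the matrix genes Lum and Dpt rose by 0.45 and 0.51. The Col14a1- and Tcf21-led clusters held few EGFP-high cells, so the label and the kind of mesenchyme moved together in this comparison.

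Among genes with at least 20 CPM on the higher side, those with the widest differences in that comparison were Gal, the galanin peptide (2.92), Npy (1.94), Pecam1 (1.90), Btn1a1 (1.67), Adgrf5 (1.62), Plvap (1.60), Erbb3 (1.46), Bmx (1.41), Ntrk2 (1.37) and Mstn (1.34) on the EGFP side. On the dsRed side they were Actg2 (−2.26), Tnxb (−2.12), Svep1 (−1.76), Spon2 (−1.75), Gucy1a1 (−1.64), Kcnn3 (−1.61), Mme (−1.61), Wt1 (−1.58), Lsp1 (−1.53) and Ogn (−1.52). Gal stood at 18.0, 45.7, 2.93 and 48.0 CPM in EGFP-only and at 2.82, 6.40, 1.52 and 3.04 CPM in dsRed-only cells. The EGFP-only sums held 610542, 1648497, 1026577 and 481254 UMIs in all, so levels of a few CPM on that side rest on few UMIs. Among 16 pan-endothelial genes 4 rose (Pecam1, Cdh5, Plvap and Eng) and 0 fell. Cdh5 stood at 27.9, 6.70, 20.5 and 4.17 CPM in EGFP-only and at 5.37, 3.05, 2.71 and 1.43 CPM in dsRed-only cells, far under its 702 CPM in endothelial-like cells. The summed level of the 18 pan-endothelial genes was 758 to 863 CPM on the EGFP side and 596 to 632 CPM on the dsRed side, and Cldn5 was at 0 on the EGFP side in all 4 libraries. The part of endothelial RNA or of cells between both states in these genes was not tested. In the remaining lists Hapln1 and Fbln2 of 11 endocardial genes, Crabp1 and Hand2 of 6 neural crest and outflow genes, and Myl4 and Nppa of 16 cardiomyocyte genes rose, Acta2 of 9 mural genes fell, and 0 of 14 G2/M genes passed. With EGFP-high against EGFP-low mesenchymal-like cells, where 13.6% of genes were called, 7 of the 14 G2/M genes fell and all 14 lay below 0 (median −0.25 against 0.00 over all genes). The difference by label itself differed between KO and het for 6 genes (0.0489% of genes), 3 in each direction, by the edgeR interaction test.

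To hold the kind of mesenchyme closer, EGFP-high and EGFP-low cells were compared within the Postn- and Sox9-led clusters, a comparison chosen after the data were seen. It set 59, 218, 105 and 64 EGFP-high against 182, 797, 387 and 463 EGFP-low cells, and 131 of 12563 genes passed (1.04% of genes), 72 higher and 59 lower in EGFP-high cells. Acta2, the smooth muscle actin, stood at 204, 262, 167 and 203 CPM in EGFP-high and at 328, 519, 288 and 407 CPM in EGFP-low cells (log2 difference −0.90, SE 0.0583, edgeR adjusted p = 3.7e-07). The tropomyosin Tpm2 fell by 1.03, the calponin Cnn1 by 0.88 and Synpo2 by 0.83, and 2 of 9 mural genes fell and 0 rose. The chemokine Cxcl12 stood at 8.45, 4.87, 7.48 and 5.30 CPM in EGFP-high and at 27.3, 47.4, 8.02 and 14.0 CPM in EGFP-low cells (−2.23, SE 0.310, edgeR adjusted p = 0.00140), with the KO 1 values near each other. Without het 2 the count of genes was 35.

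Genes higher in EGFP-high cells of these clusters included Btn1a1 (1.03), the kinase Bmx (0.89), Dusp10 (0.89), Adamtsl1 (0.84), Ccdc141 (0.77), Fabp3 (0.75), Cacnb2 (0.74), the lipase Lpl (0.69), Spint2 (0.68) and the transcription factor Tal1 (0.68). Pecam1 stood at 15.7, 15.8, 35.4 and 12.4 CPM in EGFP-high and at 4.60, 5.58, 7.41 and 4.63 CPM in EGFP-low cells (1.73, SE 0.194, edgeR adjusted p = 0.000249), again far under its 575 CPM in endothelial-like cells. Of 16 pan-endothelial genes 3 rose, of 11 endocardial genes 2 (Gata5 by 0.55 and Cgnl1 by 0.31), and of 18 cushion genes only Msx1 (0.35). Of 5 alternatives, leaving out each library in turn or the library block, the calls of Gata5 and Ube2c were lost in 5. Those of Cdh5, Dusp10, Lpl and Synpo2 were lost in 4, and that of Cgnl1 in 3. Msx1 lost its call in 2, and each other gene named for these clusters in at most 2. The sign was kept in all. No gene of the 14 epicardium-derived and fibroblast genes passed. Of 14 G2/M genes Ube2c fell (−0.24) and all 14 lay below 0, with a median of −0.08 against 0.01 over all genes. The other genes lower with EGFP by the naming rule were Ankrd1, Fibin, Stmn4, Ccn2 and Pid1, by −1.15 to −0.84.

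**Figure D5:**
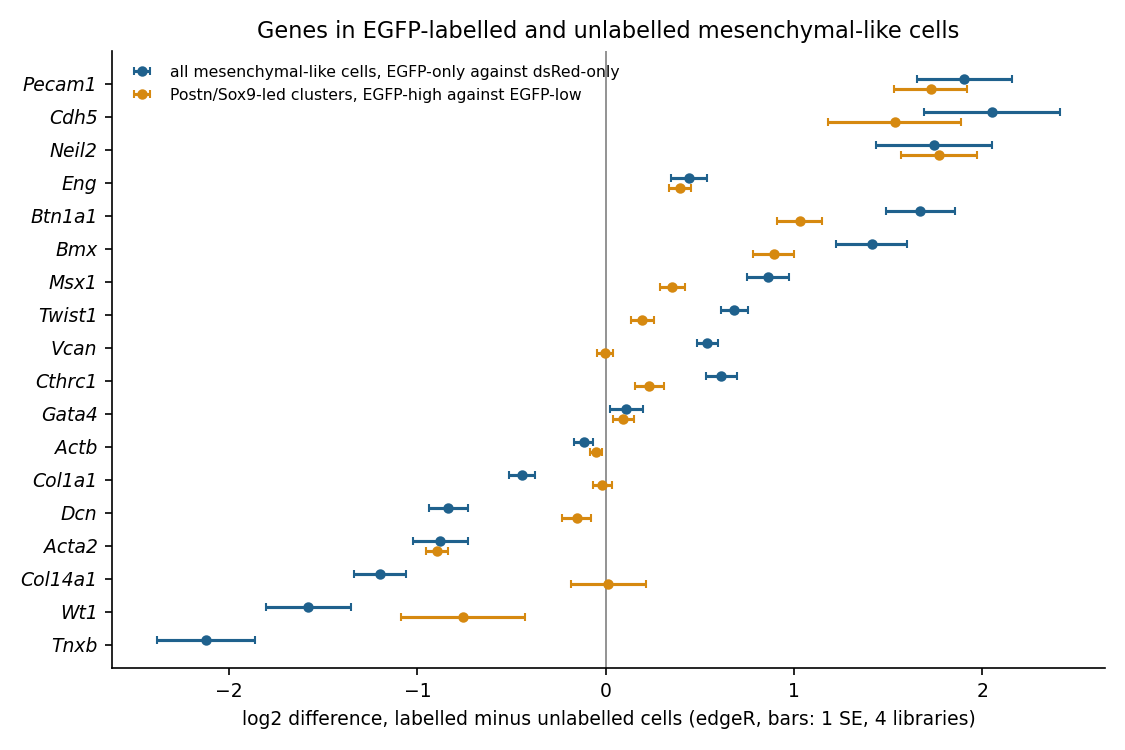
Log2 difference of 18 genes between EGFP-labelled and unlabelled mesenchymal-like cells (points; bars are 1 SE from edgeR; 4 libraries), for EGFP-only against dsRed-only cells of the whole class and for EGFP-high against EGFP-low cells of the Postn/Sox9-led clusters; Tnxb was tested in the first only. Pecam1, Cdh5 and Neil2 lie at the right in both, Acta2 at the left in both, and Gata4 and Actb near 0.

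Neil2, a DNA repair gene that lies 5066 bases from Gata4 on chromosome 14 (63182443 to 63193856 against 63198922 to 63271692, both on the minus strand, mm10), followed the label in mesenchymal-like cells. In the Postn- and Sox9-led clusters it stood at 10.9, 11.8, 27.2 and 25.9 CPM in EGFP-high cells and at 5.21, 4.19, 7.87 and 5.24 CPM in EGFP-low cells (log2 difference 1.77, SE 0.203, edgeR adjusted p = 0.000291). It was higher with EGFP in 4 of 4 libraries. Over the whole mesenchymal-like class its difference between EGFP-only and dsRed-only cells did not pass the test of a difference between KO and het (0.50, SE 0.621, edgeR unadjusted p = 0.427). Gata4 in the same EGFP-high and EGFP-low cells was 176 ± 20.5 CPM with EGFP and 164 ± 22.3 CPM without (SD, n = 4; log2 difference 0.09, SE 0.0558, edgeR adjusted p = 0.639). In endothelial-like cells Neil2 was 42.3 ± 29.4 against 26.1 ± 17.5 CPM (log2 difference 0.66, SE 0.172, edgeR adjusted p = 0.231), higher in EGFP-only cells of 4 of 4 libraries. Gata4 there was 174 ± 46.9 against 142 ± 27.1 CPM (log2 difference 0.25, SE 0.0890, edgeR adjusted p = 0.607). Over all endothelial-like cells Neil2 was higher in KO than in het (log2 difference 1.74, SE 0.157, edgeR unadjusted p = 2.5e-05), but did not pass after adjustment. In mesenchymal-like cells the genotype difference of Neil2 was 0.47 (SE 0.251, edgeR unadjusted p = 0.0972). The label difference of Neil2 in endothelial-like cells did not pass the test between KO and het (−0.12, SE 0.433, edgeR unadjusted p = 0.791).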

How the data were processed

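Single-cell RNA was counted in 4 libraries of ventricle cells. The deposited matrices hold raw UMI counts per feature and barcode, per the file headers, which name Cell Ranger 6.0.1. The submitters' processing notes also name Seurat and mm10. Gene positions were taken from GENCODE M21 (mm10), which may not be the authors' annotation. Barcodes with fewer than 500 genes or at least 20% mitochondrial UMIs were left out. Scrublet in scanpy 1.11.5 marked doublets (305, 243, 403 and 63 removed in het 1, het 2, KO 1 and KO 2). Its own threshold gave 2 and 1 calls in het 1 and KO 2, so the median of the other thresholds, 0.346, was used there. Cells were clustered (2000 variable genes, 30 components, 20 neighbours, Leiden resolution 1) without the reporters, Gata4, globin and sex-linked genes. Of 41 clusters, those with at least 3 detected markers and a mean log2 fold of 1 or more were named. Limits on cardiomyocyte markers (under 1% of UMIs outside cardiomyocyte-like clusters, at least 5% within) were set after the clusters were seen. Names rebuilt this way may differ from the study's.

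UMIs were summed per library and class, and per side of a label comparison with library as a block. Genes passing filterByExpr were scaled by TMM, and edgeR 4.0.16 (R 4.3.3) gave quasi-likelihood tests with Benjamini-Hochberg adjustment over all genes tested at 0.05. Percentages went through an exact permutation test over libraries, two-sided. Libraries are not stated to be separate litters, so p-values measure only the spread between these libraries. A count of 0 allows up to 3 counts. The test was checked on simulated counts. Named genes were the 5 most like each reporter, up to 10 per direction past the test with at least 20 CPM and 1 direction in all libraries, up to 4 of lowest p per list, and Gata4, FloxGata4, FloxGata4_ctrl, Neil2, Cdh5, Gt(ROSA)26Sor and Actb. The reporters, the 10 gene lists and the 11 marker lists were chosen with earlier results of these data known. Alternatives were DESeq2 1.42.0, other filters, scalings, label calls and left-out libraries.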

Additional observations from a re-analysis of the deposited data

Results flagged for a closer look

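The difference between EGFP-only and dsRed-only cells itself differed between KO and het for 15 of 12780 genes in endothelial-like cells (0.117% of genes) and for 6 of 12260 genes in mesenchymal-like cells (0.0489%), by the edgeR interaction test. In endothelial-like cells the lowest adjusted p belonged to Aqp1 (1.68, SE 0.213), Ccl2 (2.55, SE 0.327) and Serpinb1a (3.52, SE 0.449), each with an edgeR adjusted p of 0.0001. The platelet gene Pf4 (4.24, SE 0.685) and the embryonic globin Hbb-bh1 (−1.95, SE 0.359), genes of blood cells, were also among the 15. In dsRed-only cells Pf4 stood at 119, 9.75, 2.35 and 4.14 CPM, high in het 1 alone, and in het 2 it was below its 12.4 CPM in EGFP-only cells. Hbb-bh1 stood at 85.6, 5.85, 134 and 5.51 CPM in dsRed-only cells, so both varied widely within a genotype. In mesenchymal-like cells the 6 were the globins Hbb-bt (−1.71) and Hbb-bs (−1.70), the matrix genes Eln (1.23) and Fbln5 (2.20), Sfrp2 (2.20) and Plac1 (−2.95). Eln had the opposite sign in endothelial-like cells (−1.42). Some of these genes also lead single clusters of the class. Aqp1 and Adamts8 lead the Wnt4-led cluster, and Igfbp3 (−1.39) the Fabp4- and Apln-led vascular cluster. Eln, Fbln5 and Sfrp2 are leading genes of the same mesenchymal-like cluster at Leiden resolution 2. The parts that blood cell RNA and the mix of clusters take in these calls were not tested.

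The tables also count 2 further added sequences, which were not part of the lineage reporter. FloxGata4 had 7 UMIs over the 4 libraries (5, 0, 1 and 1), and of the cells kept in named classes only cardiomyocyte-like cells held any, with 3, 0, 1 and 1. FloxGata4_ctrl had 1114 UMIs (361, 191, 395 and 167). Its level was 2.81, 1.35, 5.03 and 2.30 CPM in endothelial-like cells, 4.03, 2.37, 4.39 and 2.14 CPM in mesenchymal-like cells and 0.0369 to 0.194 CPM in erythroid-like cells. It did not pass the test between EGFP-only and dsRed-only mesenchymal-like cells (log2 difference −0.48, SE 0.529, edgeR adjusted p = 0.732), and its difference by label did not pass the test between KO and het there (1.38, SE 1.16, edgeR unadjusted p = 0.247). What the 2 sequences hold is not stated in the sources used here.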

How the results depend on the processing

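Of the 12 log2 differences of EGFP and dsRed between KO and het, 82 of 88 values under other settings kept their direction and their side of the threshold. The exceptions were EGFP in cardiomyocyte-like cells with no filter on low counts (−0.72, adjusted p = 0.0134 with edgeR), EGFP in erythroid-like cells without scaling (0.23), and 4 values with the replicate number as a block. With that replicate block EGFP differed by −0.13 in epicardial-like cells, −0.72 in cardiomyocyte-like cells (edgeR adjusted p = 0.000912) and −0.66 in erythroid-like cells (edgeR adjusted p = 0.0132), and dsRed by −1.01 in erythroid-like cells (edgeR adjusted p = 5.9e-05). The replicate block called 444, 51, 11, 279, 3612 and 21 genes in endothelial-like, mesenchymal-like, epicardial-like, cardiomyocyte-like, erythroid-like and macrophage-like cells, against 0 in each without it. Same-numbered libraries correlated at 0.365 to 0.556 in their deviations over the 6 classes. Median depth was lower in het 1 and KO 1 (4162 and 7111 UMIs per cell) than in het 2 and KO 2 (14053 and 12302). There are only 2 pairs and the labels name no shared litter or day, so what else same-numbered libraries share is not known. A pairing by litter or day was not tested. Leaving out 1 library moved EGFP between −0.51 and 0.54 in endothelial-like, −0.81 and 0.01 in mesenchymal-like, −0.68 and 0.47 in epicardial-like, −1.21 and −0.24 in cardiomyocyte-like and −0.23 and 0.52 in macrophage-like cells. It moved dsRed between −0.31 and 0.10, −0.21 and 0.018, −0.40 and 0.24, −1.25 and −0.76, and −0.045 and 0.24 in mesenchymal-like, epicardial-like, cardiomyocyte-like, erythroid-like and macrophage-like cells, and the EGFP effect in endothelial-like minus cardiomyocyte-like cells between −0.26 and 1.64. The KO minus het difference in EGFP share ranged from −1.59 to 0.864 percentage points in endothelial-like, −5.27 to 6.20 in epicardial-like, −17.1 to 1.66 in cardiomyocyte-like and −7.38 to 9.84 in macrophage-like cells without 1 library. As a mean over cells that difference was −3.63 in erythroid-like and −2.55 in macrophage-like cells. The EGFP-high share turned to 3.22, 9.09 and 7.97 points in vascular, Wnt4-led and granulocyte-led cells over all cells, and in Klf1-led cells to 0.27 at a limit of 70%, with −1.66 to 0.10 over left-out libraries. The count of genes for the endothelial-like label (1) was 10 with at least 2 UMIs, 96 with no filter, 0 without the library block, 6 in cells of 3000 or more UMIs, 7 for EGFP-high against EGFP-low, and 0 to 5 without 1 library. Its interaction count (15) was 7 for EGFP-high against EGFP-low and 35 to 68 without 1 library. The mesenchymal-like count (525) was 220 with DESeq2, 798 with no filter, 100 without the library block, 1809 for EGFP-high against EGFP-low, and 137 to 486 without 1 library. In the Postn- and Sox9-led clusters 131 genes became 1 without the library block and 35 to 135 without 1 library. The cause of these changes was not tested. No named gene of a label comparison changed direction under the alternatives run. Depth limits the reporter calls: cells under 5 reporter UMIs could not be called, which leans the shares of callable endothelial-like cells towards EGFP-high.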
